A study of Mus musculus with 35 samples.

Results

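The 7 genes Lmna, Lmnb1, Lmnb2, Lbr, Casz1, Sun1 and Sun2 encode parts of the nuclear lamina, its partners in the nuclear membranes and a transcription factor linked to the architecture of rod nuclei. They were chosen by name and were read from a table of 19089 mouse protein-coding genes whose starts could be placed on the peak lists. Chromatin marks at and around these 7 genes were compared across retinal development and between wild-type and Brg1-deficient retinae.

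The lamina is a meshwork of A-type lamins (from Lmna) and B-type lamins (from Lmnb1 and Lmnb2) under the inner nuclear membrane, and in most cells it holds heterochromatin at the nuclear edge. The lamin B receptor (Lbr) and lamin A/C are the main tethers for that peripheral heterochromatin. Mature mouse rods lack both, and their nuclei are inverted, with heterochromatin in the centre and euchromatin at the edge. Casz1 is a zinc finger transcription factor that acts in retinal progenitors and in the nuclear organization of rods, and Sun1 and Sun2 are inner membrane proteins of the LINC complexes that couple the nucleus to the cytoskeleton.

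The study performed chromatin immunoprecipitation and sequencing (ChIP-Seq) on whole retina with antibodies to H3K4me3 (a mark of active gene starts), H3K27Ac (a mark of active starts and enhancers) and H3K27me3 (a mark of Polycomb-repressed chromatin), and on Brg1, the ATPase of the BAF chromatin remodelling complex. Wild-type retinae were collected at postnatal day (P) 0, 12, 14 and 21, with 2 libraries for each mark and stage, except for 1 library at P12 for H3K4me3 and 1 for H3K27Ac. Brg1-deficient retinae, labelled BRG1 -/- or CKO, were collected at P12 and gave 1 H3K4me3, 2 H3K27Ac and 1 H3K27me3 libraries. Brg1 itself was precipitated once, through the FLAG tag of Brg1-FLAG knock-in pups at P0. In the study the gene was inactivated in Chx10-Cre;Brg1 Lox/Lox mice, in which Cre acts in retinal progenitor cells as a mosaic, so wild-type cells remain in these retinae, and mice with small eyes, where Cre had acted more widely, were preferred for ChIP-Seq. No library measured Brg1 in the deficient retinae, so the loss of the protein was not checked here. Because the retina was taken whole, fewer cells of a type and less mark per cell cannot be told apart, and although the study calls its histone mark libraries biological duplicates, the labels tie no library to an animal, so that p-values measure the spread between these libraries.

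Heights are the fold enrichment of a peak over its control, divided by a factor for each library that equalizes the median height over genes with a peak in every library of the mark (scaled fold enrichment). A gene was given the highest peak within 2 kb of any of its annotated starts, or of either gene end where its strand was unknown. The deposited lists held 17433 to 18718 H3K27Ac peaks in P0 replicate 1, P14 replicate 1 and P21 replicate 1 and 29304 to 50005 in the other 6 libraries, so that a missing H3K27Ac peak in those 3 libraries cannot be told apart from weaker detection. The H3K4me3 lists were more even, at 18534 to 24124 peaks. The labelled tissue was checked on marker genes. H3K27Ac was called in both libraries at 1 of 9 photoreceptor marker genes at P0 and at 8 of 9 at P21, and its summed scaled height over that list was 8.38 to 15.6 at P0 and 129 to 278 at P21. Over 7 progenitor and Müller glia markers the sum was 95.2 to 98.5 at P0 and 21 to 35.2 at P21. Over 7 inner neuron markers the sum was 22.9 to 38.3 at P0 and 21.2 to 24.5 at P21, with overlap. It was 0 in all P0 and P21 libraries for the 4 lens and the 4 microglia markers, 0 to 3.11 for endothelium, 0 to 7.23 for pigment epithelium and 0 to 7.65 for skin or muscle. H3K27Ac at the photoreceptor and the progenitor and Müller glia markers thus differed between the P0 and P21 libraries, and the part of cell make-up in the P21 against P0 results was not tested.

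The sequences just upstream of 4 starts are shown because of the marks at these starts. The window around the internal start of Casz1 held higher H3K4me3 after P0, and its first start held the mark at all stages. Both the Lmna start and the first Casz1 start carried H3K4me3 and, in most libraries, H3K27me3. The Lbr start held the tallest H3K27Ac of the members at P0. Each line gives 250 bases 5′ of an annotated start on the gene's strand from RefSeq (GRCm38.p6), in the order Casz1 internal (chr4:148889097-148889346, plus strand), Casz1 first (chr4:148804142-148804391, plus strand), Lmna (chr3:88503353-88503602, minus strand) and Lbr (chr1:181842402-181842651, minus strand). The first Casz1 gene start is annotated at 2 positions 0.026 kb apart, and the window shown ends before the second, so it runs past the first. Capitals mark the letters TAATCC or, on the other strand, GGATTA, the core of the motif bound by Crx and related photoreceptor homeodomain factors.
Casz1 internal start: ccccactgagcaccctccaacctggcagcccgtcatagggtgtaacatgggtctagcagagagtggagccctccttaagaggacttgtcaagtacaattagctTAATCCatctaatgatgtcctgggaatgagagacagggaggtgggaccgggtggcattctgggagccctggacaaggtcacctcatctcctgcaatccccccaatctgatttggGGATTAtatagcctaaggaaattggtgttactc
Casz1 first start: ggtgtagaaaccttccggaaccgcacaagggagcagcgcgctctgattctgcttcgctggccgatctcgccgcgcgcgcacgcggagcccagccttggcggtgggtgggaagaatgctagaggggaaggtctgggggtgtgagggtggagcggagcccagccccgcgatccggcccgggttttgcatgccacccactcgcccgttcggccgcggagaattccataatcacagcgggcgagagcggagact
Lmna start: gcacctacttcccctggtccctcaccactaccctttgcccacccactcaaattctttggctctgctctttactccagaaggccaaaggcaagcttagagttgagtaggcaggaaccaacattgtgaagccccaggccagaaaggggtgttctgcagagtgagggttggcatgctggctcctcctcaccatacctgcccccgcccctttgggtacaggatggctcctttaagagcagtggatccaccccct
Lbr start: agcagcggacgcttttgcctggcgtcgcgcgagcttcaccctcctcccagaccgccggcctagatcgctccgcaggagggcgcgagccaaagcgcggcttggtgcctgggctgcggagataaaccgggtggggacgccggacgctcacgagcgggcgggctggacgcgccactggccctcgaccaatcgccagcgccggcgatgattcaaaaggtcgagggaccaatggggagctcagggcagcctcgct

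TAATCC, read on both strands, occurred at 2 places in the Casz1 internal window and at 0 in the other 3 windows shown, while among all 10 windows of the members a second Sun1 window held 1 match. Among 18983 coding-gene promoters of the same length, 5.75% held it at least once and 0.3% held it at least 2 times. The windows also differed in CpG content. The Casz1 internal window held 2 CG dinucleotides and the Lmna window 1, against 27 at the first Casz1 start and 31 at Lbr, where the median promoter held 10. CCAAT, found in 35.2% of promoters, occurred 2 times in the Casz1 internal window and 2 times in the Lbr window, GGGCGG (43.6%) occurred once in each of the Lmna and Lbr windows, and TATAAA (11.4%) in none of the 4. The promoter table matched 6 of the 7 members, and such matches describe the letters only, not bound sites.

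Each of the 7 genes carried an H3K4me3 peak at a start in all 8 H3K4me3 libraries, as did 61.2% of all coding genes. H3K27Ac was called in all 9 libraries at 4 members (Lmnb1, Lbr, Casz1 and Sun1), against 29.8% of coding genes and 48.6% of those with H3K4me3 in all 8 libraries. In limma (Benjamini-Hochberg adjusted p under 0.05 over all genes tested), 0 of 7 members passed for H3K4me3 at P14 against P0, where 1.9% of 12530 genes passed, and 0 of 7 passed at P21 against P0, where 7.11% passed. Between P14 and P21 0.00798% of genes passed and no member did. In tests on simulated data of this size, a log2 change of 2 was called at 68.1% of changed genes for H3K4me3 and a log2 change of 1 at 2.83%. For H3K27Ac a log2 change of 2 was called at 0% of changed genes and 0% of changed regions. The simulation spread missing peaks over the libraries at random. In the data they were more common in the H3K27Ac libraries with few peaks, and 10.4% of 33334 H3K27Ac regions passed at P21 against P0. The simulated rates are therefore not those of the data. For H3K27Ac at starts 0.0% of 11459 genes passed in each stage comparison, so a count of 0 members says nothing particular about them. For H3K4me3 a count of 0 is not read as an absence of changes of the size measured at the members.

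**Figure D1:**
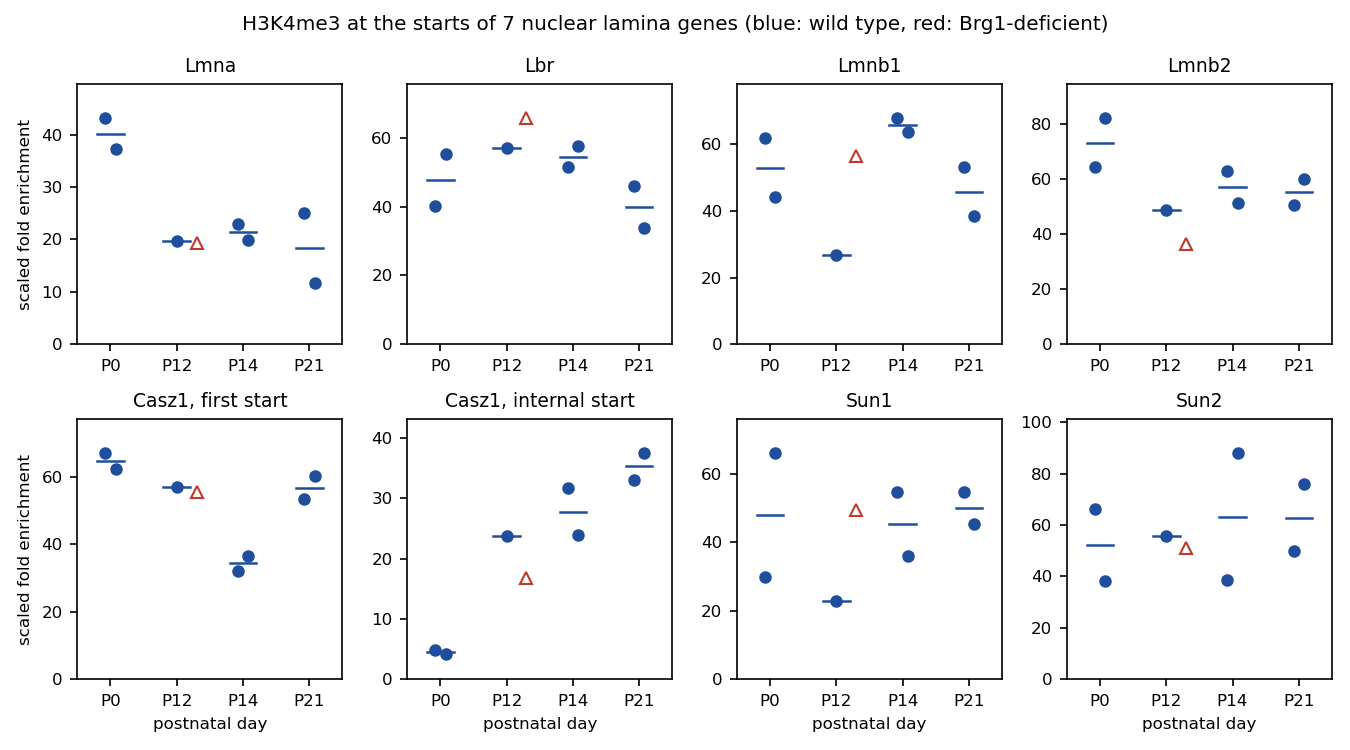
Scaled H3K4me3 fold enrichment (vertical axes, linear from 0) at the starts of the 7 genes against postnatal day, with one blue point per wild-type library, a blue bar at the group mean and a red triangle for the Brg1-deficient P12 library. Lmna was highest in both P0 libraries (43.1 and 37.2), and the window around the Casz1 internal start was lowest in both (4.76 and 4.11).

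Lmna (Entrez gene 16905), the gene of lamin A and C, lies on the minus strand of chromosome 3 and has 3 annotated starts. Its strongest H3K4me3 stood at the middle one (GRCm38 position 88503352, estimated at 88307289 on mm9). There the scaled H3K4me3 height was 43.1 and 37.2 at P0, 19.7 at P12, 23.0 and 19.9 at P14, and 25 and 11.6 at P21. Both P0 libraries lay above every later library. The same order held between P0 and P14 in 25.9% of the 12486 genes so compared and between P0 and P21 in 31.8% of 12494. The log2 difference on the scale of height plus a pseudocount was -0.72 (SE 0.30, limma adjusted p = 0.26) at P14 and -0.94 (SE 0.30, adjusted p = 0.0765) at P21, 0.522-fold, against an all-gene median of -0.08. The P21 value passed with limma adjusted p = 0.0392 when only genes with a peak in every fitted library were tested, where 741 of 11705 passed. It was -0.55 or -1.32 when one or the other P21 library was left out.

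At P21 the 2 Lmna libraries differed by more than any other stage pair of this gene, and Lmna ranked above 75.8% and 66.5% of coding genes in the P0 libraries and above 54.6% and 43.8% in those of P21. The other Lmna starts held lower H3K4me3. At the outermost start it was 12.2 and 9.87 at P0 and 6.60 and 4.36 at P21, and at the start nearest the 3′ end it was 11.5 and 15.1 at P0 and 11.7 and 6.63 at P21. H3K27Ac at Lmna, by its highest start, was 7.21 and 8.25 at P0, 5.23 at P12, 0 (no peak) and 8.34 at P14, and 0 and 4.96 at P21. Both zeros came from the libraries with few peaks, and by this value the libraries of P0 and P14 overlapped. The highest start was not the same in every library. At the middle start H3K27Ac was 7.23 and 8.25 at P0 and 3.11 at P12. It was 0 and 5.47 there at P14, and 0 and 3.98 at P21, without overlap with P0. At genes the P14 libraries lay below those of P0 in 30.6% of 11052 and the P21 libraries in 30.4% of 10800.

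H3K27me3 was read as islands called by the authors, and only their presence is compared because the antibodies differ by label (AB1 at P0, P14 and P21, AB3 at P12). An island covered the Lmna start in 8 of 9 libraries, the exception being P0 replicate 1, and was 2600 to 7000 bp long. A further island lay between 12.5 and 24.9 kb downstream of that start in all 9 libraries, P0 replicate 1 included. It covered the 3′ part of the gene, in some libraries past the gene end. Its score was above that of the start island in each library with both (397 against 93 in P0 replicate 2). Casz1 had one at its first start in 7 of 9 libraries, absent from P0 replicate 1 and P21 replicate 2, with lengths of 2600 to 3800 bp. Lbr, Lmnb1, Lmnb2, Sun1 and Sun2 had none at a start in any library. Over all coding genes 22.2% had an island at a start in at least 7 libraries, 18.4% in at least 8 and 53.0% in none. Among genes with H3K4me3 in all 8 libraries 25.2% had such an island in at least 7. The Lmna and Casz1 starts thus held H3K4me3 and H3K27me3 in the same tissue, which whole-retina data cannot assign to the same cells. With only the stronger part of the islands kept in each library, the counts were 7 for Lmna and 3 for Casz1. P0 replicate 1, without an island within 2 kb of any member start, had the fewest islands (12188, against 15995 to 30996).

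**Figure D2:**
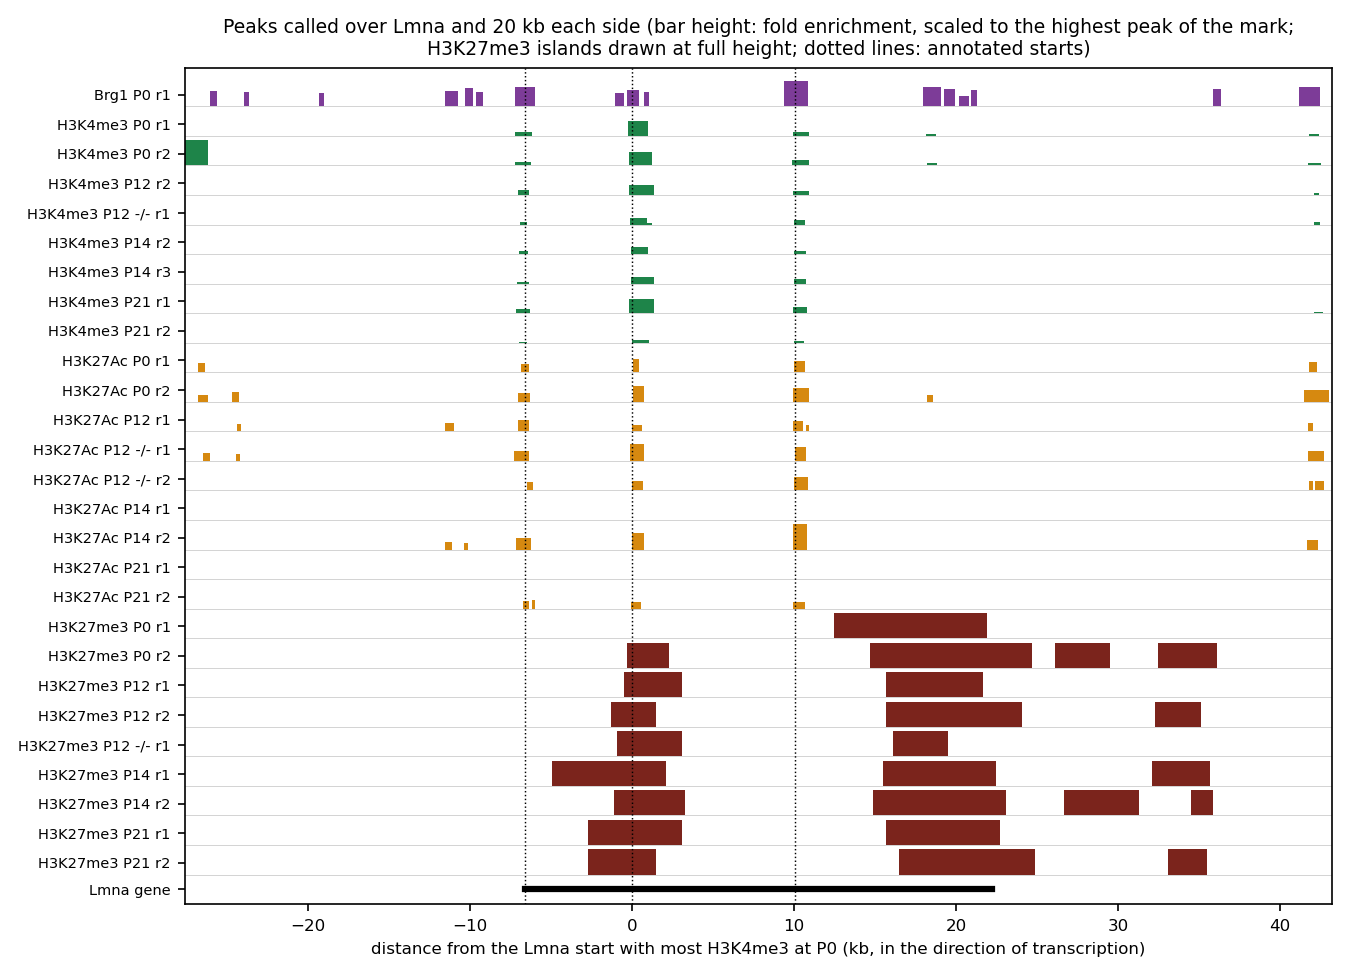
Peaks over Lmna and 20 kb each side in every library (rows), drawn against distance in kb from the start with most H3K4me3 at P0, with bar height giving unscaled fold enrichment relative to the tallest peak of that mark and H3K27me3 islands at a fixed height. H3K27me3 covered the main start in 8 of 9 libraries, beside H3K4me3 in all 8, and a further H3K27me3 island covered the 3′ part of the gene in all 9.

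Lbr (Entrez gene 98386), the tether of peripheral heterochromatin that rods lack, lies on the minus strand of chromosome 1 and has 1 annotated start (GRCm38 181842401, estimated at 183772594 on mm9). Its H3K4me3 height was 40.1 and 55.4 at P0, 57.0 at P12, 51.4 and 57.6 at P14, and 45.9 and 33.9 at P21. The P0 libraries overlapped with those of P14 and of P21, and the P21 difference from P0 was -0.22 (SE 0.28, limma adjusted p = 0.783). H3K27Ac at the same start was 22.9 and 19.6 at P0, 17.1 at P12, 12.3 and 15 at P14, and 7.72 and 6.79 at P21.

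The P21 libraries of Lbr lay below all other wild-type H3K27Ac libraries of this gene, and the P0 libraries above them. The log2 difference between P21 and P0 was -1.21 (SE 0.34, limma adjusted p = 0.303), 0.433-fold, where the median over all 11459 genes tested was -0.24 and 0.0% of genes passed (1211 at an unadjusted p under 0.05). No member or other gene passed for H3K27Ac at P14 against P0 or at P21 against P14 either (880 and 127 genes at an unadjusted p under 0.05). Among the 5688 genes with a peak in every fitted library, where 89 passed, the limma adjusted p of Lbr was 0.0383. Both P21 libraries lay below both P0 libraries in 30.4% of 10800 genes (30.6% of 11052 for P14). Lbr held 1 H3K27Ac region within the gene and 20 kb each side, the one at its start, and 1 Brg1 peak, also there. It had no H3K27me3 island within 2 kb of its start at any stage, the stage with the lowest H3K27Ac included.

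Of the B-type lamins, Lmnb1 (Entrez gene 16906, chromosome 18) had an H3K4me3 height of 61.8 and 44.3 at P0, 26.8 at P12, 67.8 and 63.8 at P14, and 53.1 and 38.6 at P21. Its H3K27Ac height was 22.3 and 18.2 at P0, 8.82 at P12, 24.0 and 11.0 at P14, and 10.8 and 8.70 at P21. The P21 H3K27Ac libraries lay below those of P0, as in 30.4% of 10800 genes, with a difference of -0.85 (SE 0.43, limma adjusted p = 0.543). For H3K4me3 the P14 libraries of Lmnb1 lay above all others, as P14 lay above P0 in 18.4% of genes, and the P12 library below them.

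Lmnb2 (Entrez gene 16907, minus strand of chromosome 10, GRCm38 80918245) had an H3K4me3 height of 64.4 and 82.0 at P0, 48.8 at P12, 62.8 and 51.4 at P14, and 50.4 and 60.1 at P21. Both P0 libraries lay above every later library by little (64.4 against 62.8). P0 lay above P14 in 25.9% of 12486 genes and above P21 in 31.8% of 12494. The P21 difference of Lmnb2 was -0.36 (SE 0.27, limma adjusted p = 0.556). The H3K27Ac height of Lmnb2 was 9.10 and 17.3 at P0, 7.85 at P12, 0 and 9.33 at P14, and 0 and 9.09 at P21, the zeros again in the libraries with few peaks.

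Sun1 (Entrez gene 77053, plus strand of chromosome 5, GRCm38 139200564) and Sun2 (Entrez gene 223697, minus strand of chromosome 15, GRCm38 79742536) encode the LINC proteins of the inner nuclear membrane. Sun1 had an H3K4me3 height of 29.9 and 66.0 at P0, 22.8 at P12, 54.7 and 35.9 at P14, and 54.6 and 45.3 at P21. For Sun2 it was 66.2 and 38.2 at P0, 55.7 at P12, 38.6 and 87.9 at P14, and 49.7 and 75.9 at P21. In both genes the libraries of one stage differed by as much as the stages did, and the limma differences of P21 from P0 were 0.13 (SE 0.33) for Sun1 and 0.25 (SE 0.37) for Sun2. H3K27Ac at Sun1 ranged from 5.68 to 18.7 over the 9 libraries and at Sun2 from 0, in P21 replicate 1, to 19.2.

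**Figure D3:**
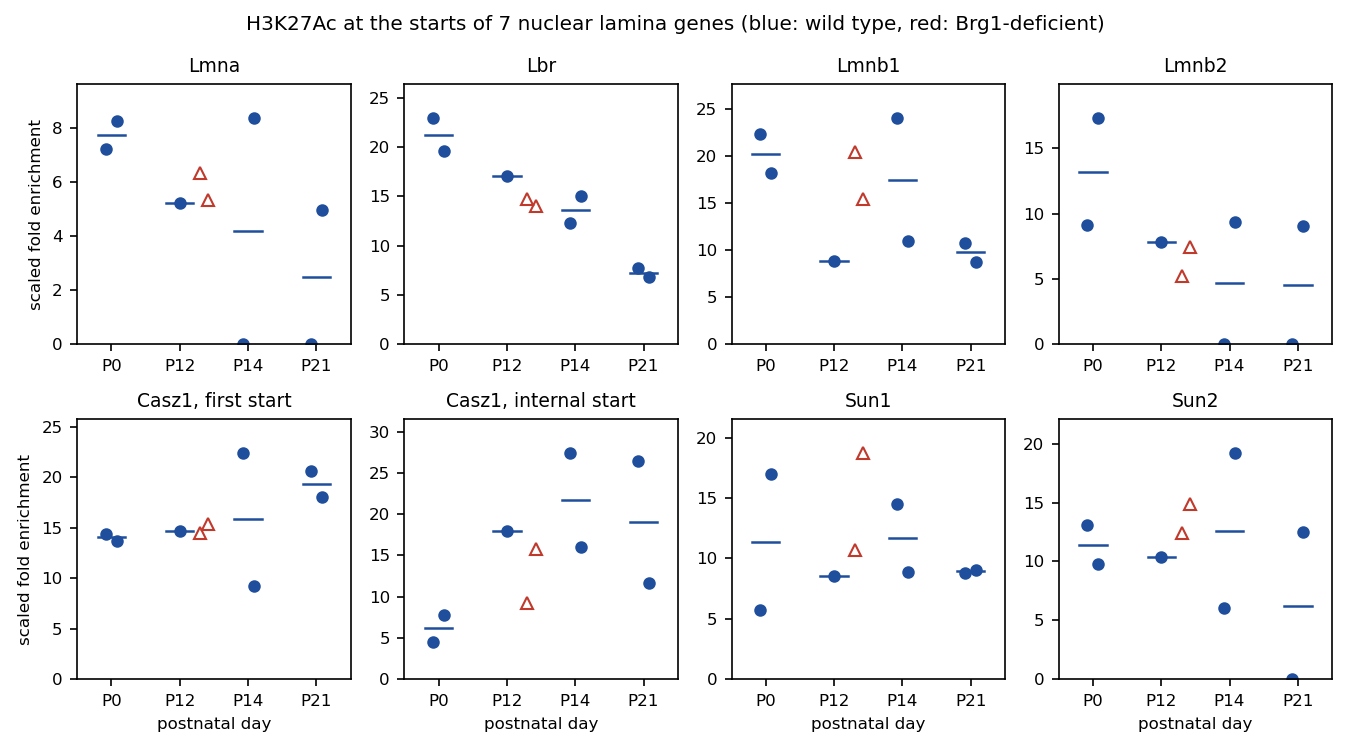
Scaled H3K27Ac fold enrichment (vertical axes, linear from 0) at the starts of the 7 genes against postnatal day, with one blue point per wild-type library (0 where no peak was called), a blue bar at the group mean and red triangles for the 2 Brg1-deficient P12 libraries. Lbr stood at 22.9 and 19.6 at P0 and at 7.72 and 6.79 at P21.

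Casz1 (Entrez gene 69743, plus strand of chromosome 4) held the most H3K27Ac and Brg1 peaks of the 7 genes. The table gives it a first start at GRCm38 position 148804366 (estimated at 148178500 on mm9) and an internal start 85 kb downstream at 148889347 (estimated at 148263481). At the first start the H3K4me3 height was 67.0 and 62.3 at P0, 57.1 at P12, 32.2 and 36.5 at P14, and 53.5 and 60.1 at P21. The P14 libraries were the lowest and did not overlap with any other stage, while in 25.9% of 12486 genes they lay below those of P0. The gene-level difference of P14 from P0 was -0.79 (SE 0.26, limma adjusted p = 0.141). At P21 the difference was -0.17 (SE 0.26, adjusted p = 0.826).

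Within 2 kb of the internal start the pattern differed. The highest H3K4me3 peak there was 4.76 and 4.11 at P0, 23.8 at P12, 31.7 and 23.9 at P14, and 33.1 and 37.5 at P21. Every later library lay above both P0 libraries by more than the spread within any stage. At the level of genes the P14 libraries lay above those of P0 in 18.4% of 12486 and the P21 libraries in 14.9% of 12494. The summits of the highest peaks near the internal start stood 1686 to 1991 bp downstream of its estimated position, near the edge of that window, in all 8 libraries. A separate, lower peak with its summit at -643 to -455 bp from the start (upstream) was called in 5 of the 6 later libraries, the deficient one included, at unscaled heights of 9.35 to 15.3, and in no P0 library. In P21 replicate 1 a single peak of 6650 bp covered both places. With each annotated start tested as a feature of its own, an analysis added after these values were seen, the log2 difference from P0 was 1.62 at P14 (SE 0.26, limma adjusted p = 0.00654), 3.08-fold, and 1.92 at P21 (SE 0.26, adjusted p = 0.00177), 3.78-fold. These folds are of height plus a pseudocount, and are smaller than the folds of the heights themselves. Of 15217 starts, 2.79% passed at P14 (0.867% higher) and 8.21% at P21 (1.3% higher). Without P14 replicate 2 the P14 value was 1.46 with adjusted p = 0.0608, and leaving out any one library kept the P21 value between 1.84 and 1.99 with adjusted p up to 0.0239.

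Without any scaling between libraries the internal start missed the threshold (P14 1.5, adjusted p = 0.388, and P21 1.95, adjusted p = 0.0582). H3K27Ac within 2 kb of the internal start was 4.53 and 7.77 at P0, 18 at P12, 27.4 and 16.0 at P14, and 26.4 and 11.7 at P21, again above P0 in every later library. At the level of genes the P14 libraries lay above those of P0 in 15.7% of 11052 and the P21 libraries in 16.7% of 10800. The H3K27Ac differences at the internal start were 1.39 (SE 0.50, limma adjusted p = 0.531) at P14 and 1.18 (SE 0.50, adjusted p = 0.449) at P21. Of 13892 starts 0.0% passed. At the first start H3K27Ac was 14.4 and 13.7 at P0, 14.7 at P12, 22.4 and 9.28 at P14, and 20.6 and 18.1 at P21, with overlap between P0 and P14. A further H3K4me3 peak, 95.7 to 98.3 kb from the first start and at no annotated start, was present in all 8 libraries, with unscaled heights of 37.9 and 59.6 at P0 and 56.8 and 22.4 at P21.

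H3K27Ac was then read over each gene and 20 kb each side, in regions made by merging overlapping peaks of the 6 wild-type libraries of P0, P14 and P21. The members held 92 tested regions, of which 61 were at Casz1, 10 at Lmnb1, 8 at Sun1, 6 at Lmnb2, 5 at Lmna and 1 each at Lbr and Sun2. Between P21 and P0 limma called 4 of the 92 (4.35%), against 10.4% of 33334 regions in the genome (7.93% higher and 2.46% lower), and all 4 were at Casz1, which held 61 of the 92 regions. At P14 against P0 0.0% of regions passed (5334 at an unadjusted p under 0.05). Directions over all the regions of a gene are not compared here, because the median log2 difference over all regions tested, 0.52, moved to -0.41 without P21 replicate 2, to 0.04 without P14 replicate 2 and to 0.01 when only the 2 stages compared were fitted.

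A region was tested where at least 2 of the 6 libraries had a peak, so a region absent from one stage entered only through the stages where it was high. This applies to each of the 4 called Casz1 regions, whose calls follow in part from that filter and are given by their heights alone. Of these, 3 had no peak in either P0 library and a peak in all 4 later ones. The region chr4:148172938-148175933 (mm9), 4.06 kb upstream of the first start, had heights of 0 and 0 at P0, 9.47 and 4.18 at P14, and 12.1 and 7.82 at P21. The region chr4:148207390-148210539, 30.5 kb downstream, had 7.06 and 3.88 at P14 and 8.02 and 9 at P21. The region chr4:148227583-148228112, 49.3 kb downstream, had 4.98 and 3.01 at P14 and 9.56 and 4.80 at P21. All 3 overlapped a Brg1 peak of P0, as did 91.8% of the Casz1 regions.

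The last called region, chr4:148241159-148241521, 62.8 kb downstream of the first start, had heights of 6.49 and 8.74 at P0 and no peak in any P14 or P21 library, and overlapped no Brg1 peak. No fold is given for these regions, since one stage has no peak. The calls depended on single libraries, and were gained or lost when 1 library was left out. Such a fit leaves 1 library in a stage, so its counts are not given. The region around the internal start (chr4:148259498-148268984) had heights of 4.11 and 7 at P0, 24.0 and 14.2 at P14, and 22.8 and 10.3 at P21, and did not pass (adjusted p = 0.249). Whether the regions lie in exons or introns was not analysed here.

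The summed length of H3K27Ac peaks over Casz1 was 12.7 and 46.3 kb at P0, 91.8 kb at P12, 42.2 and 111 kb at P14, and 51.7 and 97.6 kb at P21. The lower value of each pair came from the library with few peaks, and the P14 and P0 libraries overlapped. Over Lbr it was 1.47 and 1.98 kb at P0 and 0.566 and 2.08 kb at P21, and over Lmna 2.49 and 5.33 kb at P0 and 0 and 1.90 kb at P21. The Lmna libraries of P21 lay below those of P0 in covered length as well as in height. The 0 came from P21 replicate 1, a library with few peaks. Covered length depends on which peaks were called, so it is no separate check of the heights.

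**Figure D4:**
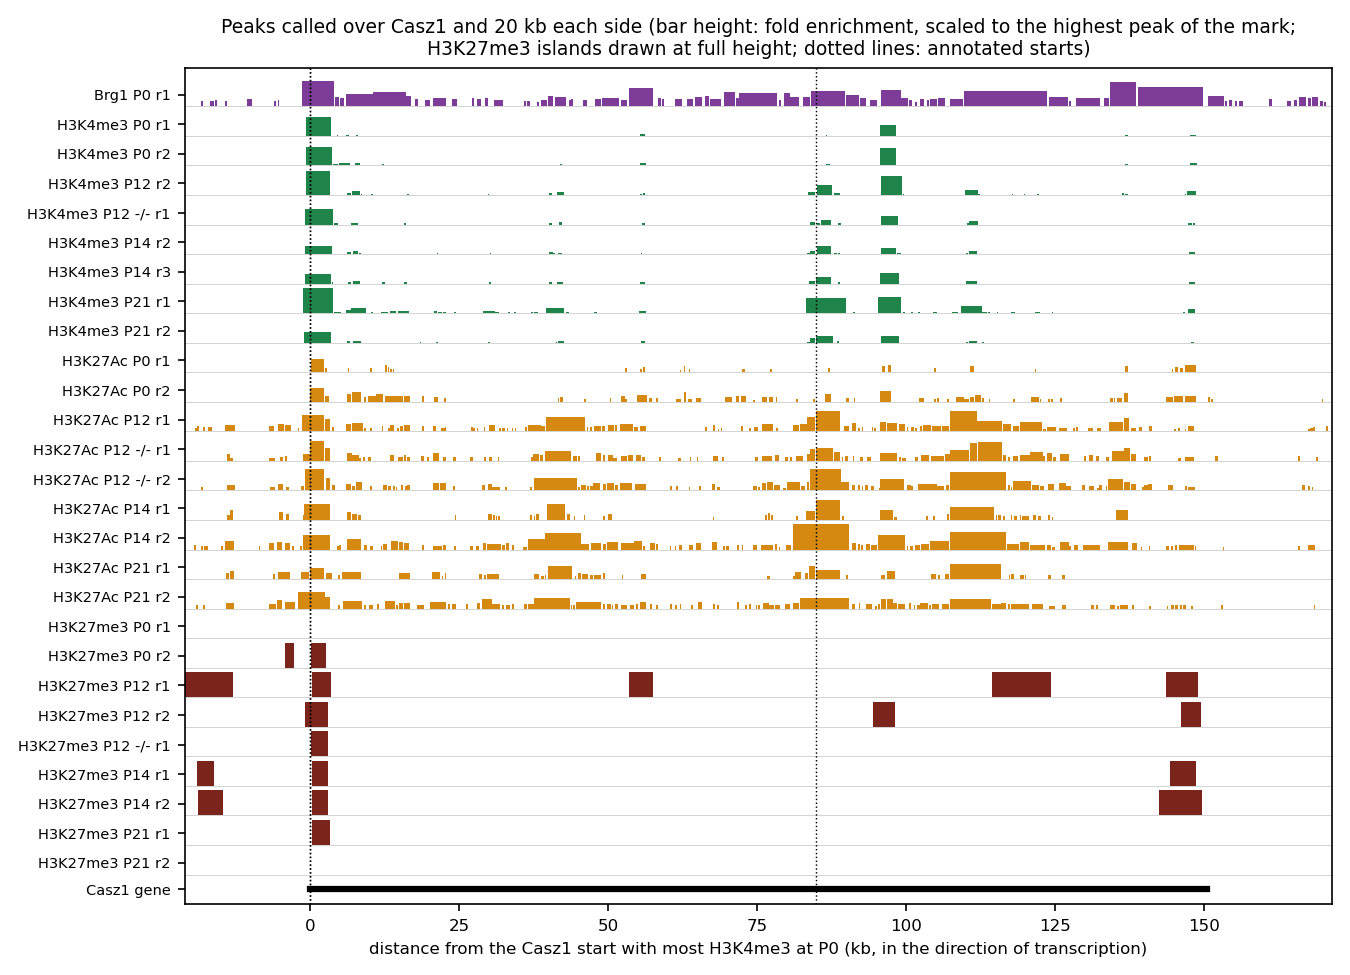
Peaks over Casz1 and 20 kb each side in every library (rows), drawn against distance in kb from the first start, with bar height giving unscaled fold enrichment relative to the tallest peak of that mark, H3K27me3 islands at a fixed height and dotted lines at the annotated starts. Around the internal start (85 kb) H3K4me3 is barely visible at P0 and clear in all later libraries, with its summits 1686 to 1991 bp downstream, and Brg1 peaks cover 68.6% of the window.

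Brg1 was called at a start of all 7 members at P0, as it was at 57.0% of coding genes and at 86.1% of coding genes with H3K4me3 in all libraries. With 1 library there is no replicate check of the Brg1 values. The unscaled height at the highest start was 15.7 at Casz1, 14.6 at Lmnb1, 10.4 at Lbr, 9.73 at Sun1, 6.78 at Sun2, 6.46 at Lmna and 4.22 at Lmnb2. Casz1 and Lmnb1 ranked above 99.6% and 99.5% of coding genes by this height, and Lmnb2 above 52.2%. The Lmna value came from its start nearest the 3′ end, and at its middle start the height was 4.15.

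In the gene and 20 kb each side the members held 122 Brg1 peaks, of which 82 were at Casz1, 17 at Lmna, 11 at Lmnb2, 5 at Sun1, 4 at Sun2, 2 at Lmnb1 and 1 at Lbr, beside a median of 2 per coding gene. Only 4 of 19089 coding genes had more than Casz1. Because the Casz1 window is long (190.5 kb), its peaks were also taken per 100 kb, which gave 43.0 against a median of 2.30, and as the share of the window under a peak, 68.6% against a median of 1.68%, with 8 genes above it. The longest Casz1 peak spanned 13979 bp (chr4:148288206-148302184). Of its 82 peaks 15 overlapped H3K27Ac in both P0 libraries, 8 overlapped H3K4me3 in both, and 66 met neither condition. A Brg1 peak with a mark in only 1 P0 library can be among the 66. Over Casz1 P0 replicate 1 had 27 H3K27Ac peaks and P0 replicate 2 had 65. Lmna had 24.7 peaks per 100 kb and Lmnb2 19.3, with 16.6% and 19.6% of their windows covered, and Lbr 1.49 per 100 kb and Lmnb1 2.34. Of the 11 Lmnb2 peaks, 3 lay near starts of Timm13 or Gadd45b, the longest (5249 bp) among them, and 1 Lmna peak lay near a start of Sema4a. Seen from the H3K27Ac side, 91.8% of the Casz1 regions (56 of 61) overlapped a Brg1 peak of P0, against 56.0% of the 33334 regions tested. Of all 92 member regions 74 did (80.4%), and 56 of these were at Casz1, where Brg1 peaks covered 68.6% of the window. The overlap was 6 of 6 at Lmnb2, 4 of 5 at Lmna, 3 of 10 at Lmnb1, 3 of 8 at Sun1, and 1 of 1 at Lbr and at Sun2.

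**Figure D5:**
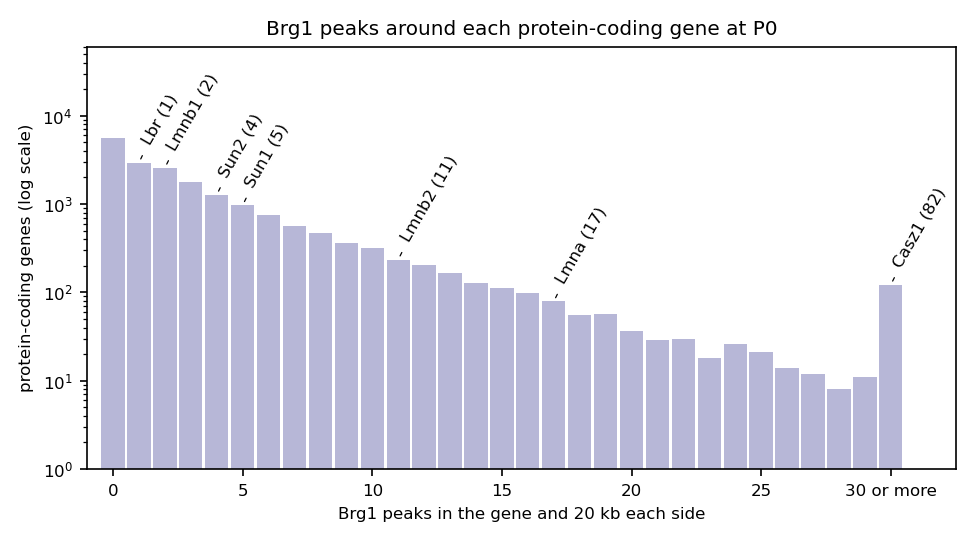
Number of protein-coding genes (vertical axis, log scale) with each number of Brg1 peaks in the gene and 20 kb each side at P0 (horizontal axis, 30 or more pooled), from the 1 Brg1-FLAG library. Casz1 (82 peaks) stands in the pooled last bin, Lmna (17) and Lmnb2 (11) in the upper tail, and Lbr (1) and Lmnb1 (2) near the median of 2.

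The comparison of Brg1-deficient with wild-type retinae at P12 rested on 1 wild-type library per mark, whose spread was taken to be that of the other groups. None of the 7 members passed for H3K4me3, where 0.00795% of 12577 genes did, or for H3K27Ac, where 0.0% of 11795 did (102 at an unadjusted p under 0.05). The H3K4me3 height in the deficient and the wild-type library was 19.4 and 19.7 at Lmna, 65.6 and 57.0 at Lbr, 36.5 and 48.8 at Lmnb2, 56.5 and 26.8 at Lmnb1, 49.4 and 22.8 at Sun1, and 51.2 and 55.7 at Sun2. The largest log2 differences were 0.90 (SE 0.39) at Lmnb1 and 0.91 (SE 0.48) at Sun1, both with a limma adjusted p of 1.0, and for both genes the wild-type P12 library was the lowest of all 8 libraries while the deficient one lay within the range of the other wild-type stages.

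H3K27Ac in the 2 deficient libraries and the wild-type one was 14.7, 14 and 17.1 at Lbr, and 20.4, 15.4 and 8.82 at Lmnb1. At Lmna it was 6.32, 5.34 and 5.23 by the highest start, which was not the same in each library. At the middle Lmna start it was 6.33, 3.52 and 3.11. The largest H3K27Ac difference was 0.79 (SE 0.48, limma adjusted p = 1.0) at Lmnb1. The internal Casz1 start had an H3K4me3 height of 16.8 in the deficient library and 23.8 in wild type, a log2 difference of -0.37 (SE 0.37, adjusted p = 1.0), and an H3K27Ac height of 9.23 and 15.8 against 18 (-0.46, SE 0.57, adjusted p = 1.0). Of all starts 0.0131% passed for H3K4me3 and 0.0% for H3K27Ac. Both marks in the deficient retinae stood above P0 at the internal Casz1 start, and the share of all starts with that order is not given here. Of 113 H3K27Ac regions around the members none passed, as none of 41451 did in the genome (2383 at an unadjusted p under 0.05). The median log2 difference over the 64 Casz1 regions was -0.22, beside -0.05 over all regions. Both medians rest on the same 3 libraries with a single wild-type one, and directions over the regions of a gene are not compared here.

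Other genes of the nuclear envelope and of heterochromatin were read from lists of named genes. Of 24 nuclear envelope and LINC genes 23 were in the table and 20 could be tested, and of 18 heterochromatin genes 17 were in the table and 16 could be tested. None of the 20 or of the 16 passed the limma threshold in any stage or genotype comparison of either mark, where 1.9% and 7.11% of all genes passed for H3K4me3 at P14 and P21 against P0 and 0.00798% or fewer in the others. The median H3K4me3 difference of P21 from P0 was 0.13 for the envelope list and 0.04 for the heterochromatin list, beside -0.08 over all genes. The H3K27Ac medians were -0.10 and -0.41, beside -0.24 over all genes. Brg1 was called at 19 of the 23 envelope genes and 13 of the 17 heterochromatin genes, beside 57.0% of coding genes and 86.1% of those with H3K4me3 in all libraries.

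Genes most like each member were ranked by Pearson's r of the log2 scaled heights, centred within each mark, over the 17 H3K4me3 and H3K27Ac libraries among 10489 genes. The r is given as a description, since all points share the libraries and their depth. For Lmna they were Nradd (0.961), Dbt (0.954) and Cav2 (0.932), and for Lbr they were Rhoq (0.883), Ahctf1 (0.863) and Pcmt1 (0.836). For Casz1 the nearest was Wdr6 (0.834), for Lmnb1 Tmem59 (0.824), for Lmnb2 Ruvbl1 (0.976), for Sun1 Txn1 (0.797) and for Sun2 Dennd5b (0.951). Lmna and Lmnb2 had no H3K27Ac peak in the same 2 libraries (P14 replicate 1 and P21 replicate 1) and Sun2 in the latter, and these zeros enter their r. Ahctf1, ranked after Rhoq for Lbr, encodes the nuclear pore protein ELYS.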

How the data were processed

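ChIP-Seq peak lists of mouse retina on mm9 were analysed. Per the submitters' processing notes the authors used CASAVA, BWA 0.5.9-r26, Picard 1.65, SAMtools, R 2.14.0, MACS2 2.0.9, bedtools 2.17.0 and SICER 1.1. The deposited H3K4me3, H3K27Ac and Brg1 lists hold, per library, a score, a fold enrichment (the height used here), -log10 p and -log10 q for each peak, all listed peaks having passed the authors' calling, and the distance to the summit. The deposited H3K27me3 islands hold a score. Read depth is unknown from these lists. The 8 input libraries were not used.

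GRCm38 starts (RefSeq) were shifted by the offset that put most coding starts within 5 Mb near (1 kb) wild-type P0 H3K4me3 peaks, used where it placed 1.5 times as many as the next best. The criterion first set had asked for 50% of the starts, which 3 members missed (Lbr, Sun1 and Lmnb1, 36.0% to 48.4% placed). Positions on mm9 are therefore estimates. The offsets from 1 Mb and 5 Mb differed by at most 154 bp for members. Strand was unknown for 3508 genes, Lmnb1 among them. Both ends of these genes were taken as starts, so the shares over all coding genes include some 3′ ends.

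Scaled heights were tested as log2(height + pseudocount, the 5th percentile of heights) for features with a peak in at least 2 libraries in limma 3.58.1 (R 4.3.3), with Benjamini-Hochberg adjustment over all genes, starts or regions at 0.05. One fit per mark covered P0, P14 and P21 in wild type, and another held all its libraries for the genotype comparison. The pseudocounts were 7.37 (H3K4me3) and 3.42 (H3K27Ac) at genes. Counts and sequences were handled in Python 3.11.15 (numpy 2.4.6, pandas 2.3.3, matplotlib 3.10.9). All 7 members are named, 2 gene lists are given by counts, and the 3 most alike genes were ranked by correlation. Members and lists were chosen with earlier results of these data known. The fits were tested on simulated data. Alternatives changed the pseudocount, filter, scaling, window, offset, peaks kept, replicate block and libraries.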

Additional observations from a re-analysis of the deposited data

How the results depend on the processing

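Over 13 results and 198 settings, 179 kept the count of members or regions within 1.5 times and 19 moved it. Of the 179, 138 were counts of 0 members at starts, which for H3K27Ac could hardly move. For H3K4me3 at starts, P21 against P0, 1 member (Lmna) passed with peaks in every fitted library, where 741 of 11705 genes passed. With the replicate block 1 (Lmna, limma adjusted p = 0.0111) passed, where 1693 of 12494 genes did. The replicate numbers pair nothing by label, and same-numbered libraries correlated at 0.166 for H3K4me3 and 0.00819 to 0.256 for H3K27Ac. For H3K27Ac at starts, P21 against P0, 1 (Lbr) passed with peaks in every fitted library, where 89 of 5688 genes passed. For H3K27Ac regions, P14 against P0, 3 passed with a pseudocount of 1 (2480 of 33334 in the genome). With peaks in every fitted library 1 passed (105 of 6394), and 7 in a fit of only the stages compared (3500 of 21638). At P21 against P0 the 4 regions became 7 (pseudocount 1), 0 (no scaling), 0 (stronger peaks only), 12 (only the stages compared) and 9 (replicate block), and 0 to 12 when one library was left out. Between genotypes 16 regions passed without the filter, and 0 to 7 when one library was left out. Brg1 peaks around the members were 76 with the stronger peaks only. At the Casz1 internal start the H3K27Ac difference at P14 passed (adjusted p = 0.0238) with peaks in every fitted library. The causes were not tested. A genotype fit on the P12 libraries alone could not be made for H3K4me3, with 1 library a group. Single Brg1 and P12 wild-type libraries, few H3K27Ac peaks in 3 libraries and estimated gene starts limit these values.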
